A study of Drosophila melanogaster with 6 samples.

Results

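Wnt proteins are secreted, lipid-modified signals, and Frizzled proteins are the cell-surface receptors that bind them. The genes described here were the 6 Wnt ligand genes wg, Wnt2, Wnt4, Wnt5, Wnt6 and Wnt10, the 3 receptor genes fz, fz2 and fz3, and nkd (naked cuticle), which encodes an inhibitor of the pathway. They were picked out by gene symbol and are 10 of the 17493 genes counted.

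RNA sequencing of polyadenylated transcripts was used to compare a tissue whose cells grow polyploid by endocycles, the larval salivary gland (SG), with brains plus imaginal discs (B-D), in which cells divide by mitosis. There were 3 SG and 3 B-D libraries, described as biological replicates, all from Drosophila melanogaster larvae of the strain y1 w67c23 kept at 25 °C, and the labels name no transgene or treatment. Larvae were taken while still feeding in the third instar, 4 days after eggs had been laid over 6 hours, and SG and B-D came from the same larvae. B-D is a mixture of neurons, neural progenitors, glia and disc epithelium, and the 2 groups differ in tissue and in cell cycle together, so these cannot be told apart.

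In the best known branch of the pathway, a Wnt ligand binds a Frizzled receptor together with the co-receptor Arrow, which stops the destruction of Armadillo, the fly beta-catenin. Armadillo then enters the nucleus and joins Pangolin, the fly TCF, on target genes. In larvae, Wingless patterns the imaginal discs, Frizzled orients epithelial cells within the plane of the tissue, and Wnt5 guides axons in the nervous system.

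The libraries held 45023997 to 55892356 counts in SG and 45370626 to 56583711 counts in B-D. Levels are in CPM, the counts of a gene per 1000000 counts of its library, after TMM scaling (the trimmed mean of M values), which sets the middle of the genes level between libraries. The labels were checked against marker genes. All 12 neuronal markers were lower in every SG library than in any B-D library, with summed levels of 237 to 493 CPM in SG and 3663 to 4407 CPM in B-D. Of 12 disc markers, 10 were likewise lower in SG. The other 2 were higher in every SG library than in any B-D library. Over all 12, the sums were 292 to 336 CPM in SG and 841 to 897 CPM in B-D. Of 11 salivary gland markers, 8 were higher in every SG library than in any B-D library, and sage, a salivary gland transcription factor, stood at 245, 262 and 579 CPM in SG, against 7.15, 8.46 and 13.2 CPM in B-D. All 7 fat body markers were also higher in SG, where they summed to 187061 to 278988 CPM, against 712 to 4365 CPM in B-D, and Lsp1gamma, a fat body storage protein gene, reached 82931 to 117083 CPM in SG and 196 to 1777 CPM in B-D. None of the neuronal or disc markers was at 0 in any SG library. SG replicate 2 stood apart, with the lowest level of all 12 neuronal markers among the SG libraries: elav, the general neuronal marker, was at 28.0, 10.7 and 46.0 CPM in SG replicates 1, 2 and 3.

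By edgeR's quasi-likelihood test, SG had less transcript than B-D for all 10 genes, at an adjusted p of at most 0.05 and a log2 fold change (SG over B-D) of at least 0.5 in size, and none was higher. Across all 11369 genes tested, 35.3% were called lower and 34.5% higher by the same rule. All 10 genes were also called lower when libraries were scaled by their totals alone, against 62.5% of the genes tested called lower and 14.0% higher, and all but fz2 when a log2 fold change of at least 1 was required, against 28.3% called lower and 24.7% higher. For each of the 10 genes, all 3 SG libraries lay below all 3 B-D libraries, as was the case for 41.3% of the genes tested. The size of the difference varied widely. The 5 ligands Wnt2, Wnt4, Wnt5, Wnt6 and Wnt10, and the receptor fz, were lower by at least 8-fold, a size reached by 13.1% of the genes tested, whereas fz2, fz3 and nkd were lower by 1.82- to 3.19-fold. The median log2 fold change was -3.28 over the 10 genes and -3.62 over the 6 ligands, against -0.03 over all genes tested. In whole tissues, fewer cells of a type and less RNA per cell cannot be told apart.

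**Figure D1:**
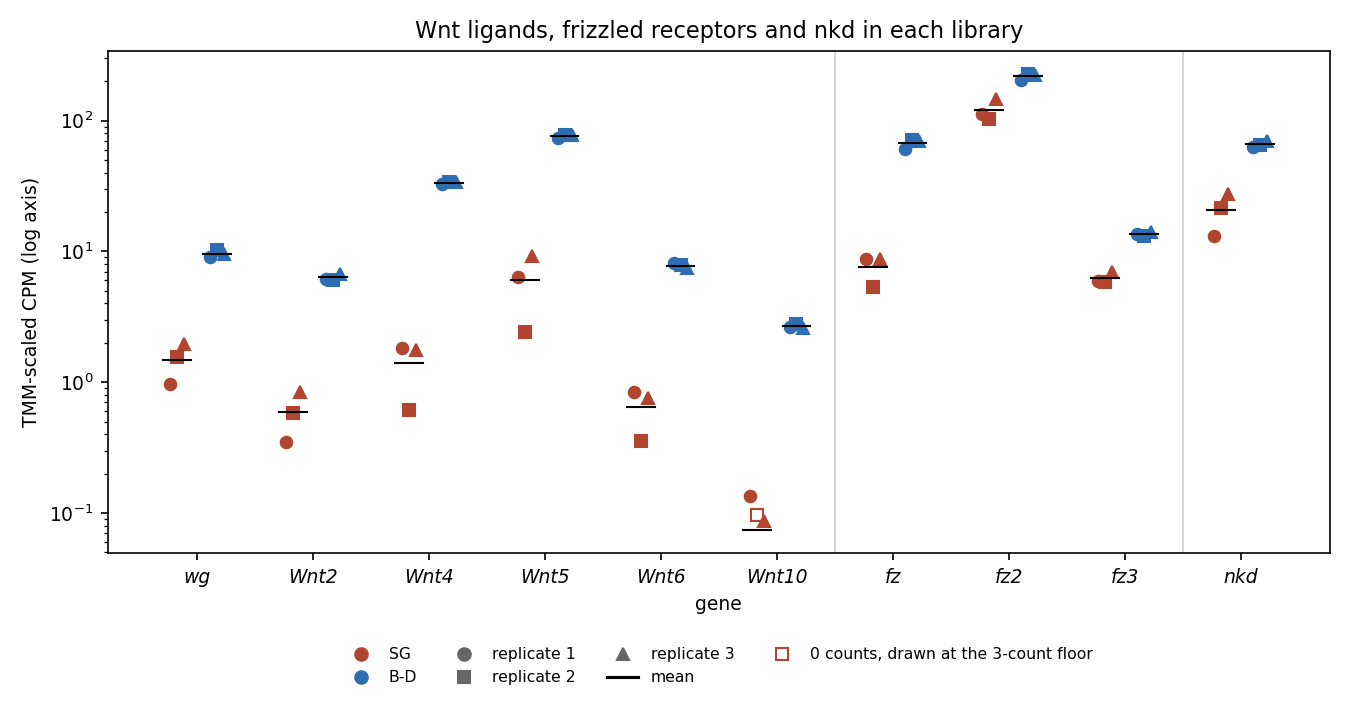
Level of each gene in TMM-scaled CPM (log axis) in the 3 SG libraries (red) and the 3 B-D libraries (blue), with the replicate shown by the marker and the mean by a black bar. For all 10 genes every SG library lies below every B-D library, and the gap is widest for Wnt10 and Wnt4 and narrowest for fz2. The open square is Wnt10 in SG replicate 2, which had 0 counts and is drawn at its 3-count floor of 0.0968 CPM, while the bar counts it as 0.

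Among the ligands, wg encodes Wingless, the founding member of the family, which is made in stripes and patches of the discs. It was at 0.971, 1.55 and 1.94 CPM in SG, against 9.13, 10.2 and 9.54 CPM in B-D. The SG values rested on 36, 48 and 67 counts. All SG libraries were thus low but above their floor, and the groups were far apart, with a log2 fold change of -2.69 ± 0.28 (SE) and an adjusted p of 2.89e-04. At 6.47-fold lower in SG, wg differed least of the 6 ligands.

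Wnt6 lies next to wg on chromosome 2L and is known for a disc pattern much like that of wg. Its level was 0.836, 0.355 and 0.754 CPM in SG (31, 11 and 26 counts), against 8.09, 7.82 and 7.45 CPM in B-D. The groups did not overlap, SG replicate 2 was the lowest library, and Wnt6 was 11.9-fold lower in SG (log2 fold change -3.57 ± 0.33, adjusted p = 2.00e-04). The 95% exact Poisson intervals of SG replicates 2 and 3 were 5.49 to 19.7 and 17.0 to 38.1 counts. These intervals of raw counts overlapped, which does not decide the order of SG replicates 2 and 3, and that order was not tested.

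Wnt4 was at 1.83, 0.613 and 1.77 CPM in SG, against 33.0, 33.7 and 34.1 CPM in B-D. The 3 B-D libraries were close to each other (coefficient of variation 1.64%), whereas SG replicate 2 had 19 counts (95% exact Poisson interval 11.4 to 29.7), fewer than the 68 and 61 counts of SG replicates 1 and 3. Wnt4 was 23.7-fold lower in SG, with a log2 fold change of -4.57 ± 0.40 and an adjusted p of 1.73e-04, and only 2.47% of the genes tested had a log2 fold change as low or lower.

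Wnt10 was the least abundant ligand in both tissues. It had 5, 0 and 3 counts in the SG libraries, which is 0.135, 0 and 0.0870 CPM, against 218, 185 and 208 counts in the B-D libraries, or 2.64, 2.79 and 2.61 CPM. Wnt10 was thus near or below the floor of 3 counts (0.0809 to 0.0968 CPM) in SG and plainly detected in B-D. Taken at the floor of 3 counts, or 0.0968 CPM, the 0 counts of SG replicate 2 put Wnt10 at least 27.7-fold lower in that library than in the B-D mean. The floor is a one-sided 95% limit, and the two-sided exact Poisson interval reaches 3.69 counts. The fitted log2 fold change of -5.08 ± 0.61 (adjusted p = 5.19e-04) rested on 8 counts in SG against 611 in B-D, and was -5.81 without SG replicate 1 and -4.54 without SG replicate 2. Of the exon bases of Wnt10, 3.33% are overlapped by the antisense gene asRNA:CR44063, and the strand setting of the counting is not given in the sources used here.

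These 4 genes form one cluster on 2L in the Release 6 assembly, in the order Wnt4, wg, Wnt6 and Wnt10, from 7255419 to 7377528, a span of 122 kb. Wnt4 (7255419 to 7277171) is on the minus strand, and wg (7307159 to 7316265), Wnt6 (7333714 to 7352542) and Wnt10 (7363379 to 7377528) are on the plus strand. No protein-coding gene is annotated in the gaps of 29.99, 17.4 and 10.8 kb between them, and the sole gene there is lncRNA:CR45304, between wg and Wnt6. All 4 neighbours were lower in SG, at fitted values of 23.7-fold for Wnt4, 6.47-fold for wg, 11.9-fold for Wnt6 and, from few counts, 33.9-fold for Wnt10.

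To compare neighbours without TMM scaling, the log2 ratio of 2 genes was taken within each library, for 6 pairs of genes in all. Before that, 0.05 CPM was added to both genes, with CPM here scaled by library totals alone. Ratios that rest on few counts therefore still depend on this scale through the added constant. With 3 libraries against 3, the two-sided exact permutation test cannot go below p = 0.1, so no ratio could pass 0.05. The wg to Wnt4 ratio was -0.87, 1.242 and 0.13 on the log2 scale in SG and -1.85, -1.72 and -1.83 in B-D. It was higher in all 3 SG libraries, by 1.97 on average, with an exact permutation p of 0.1, the smallest possible, and 0.12 after adjustment over the 6 ratios. The wg to Wnt6 ratio was 0.20, 1.92 and 1.29 in SG and 0.17, 0.39 and 0.36 in B-D, so that the groups overlapped (exact permutation p = 0.3, adjusted p = 0.3). The wg to Wnt10 ratio was higher by 1.66 in SG (exact permutation p = 0.1, adjusted p = 0.12), but at the few counts of Wnt10 this depended on the added constant, and with 0.5 CPM in its place the difference was -0.28.

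Wnt2 lies at 9494166 to 9503188 on 2R, away from the cluster. It was at 0.351, 0.581 and 0.841 CPM in SG (13, 18 and 29 counts), against 6.20, 6.05 and 6.71 CPM in B-D. Its lowest library was SG replicate 1, as for wg, and the groups were well apart, with a 10.7-fold lower level in SG (log2 fold change -3.42 ± 0.33, adjusted p = 2.39e-04). The exact Poisson intervals of the lowest and highest SG counts, 6.92 to 22.2 and 19.4 to 41.6, overlapped. Such an overlap of raw counts does not decide the order of the SG libraries, which was not tested for Wnt2.

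Wnt5, a gene of 1 exon at 18501401 to 18505405 on X, encodes a ligand of the Derailed receptors in axon guidance and was the most abundant ligand in both tissues. It was at 6.34, 2.42 and 9.25 CPM in SG, against 73.3, 77.7 and 77.9 CPM in B-D. SG replicate 2, with 75 counts (interval 59.0 to 94.0) against 235 and 319 in the other SG libraries, was by far the lowest. Wnt5 was 12.7-fold lower in SG, with a log2 fold change of -3.66 ± 0.48 and an adjusted p of 7.42e-04.

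The receptors did not move as one. The gene fz (14274343 to 14368639 on 3L) encodes Frizzled, which acts both in planar cell polarity and as a receptor for Wingless. It was at 8.71, 5.39 and 8.82 CPM in SG, against 60.8, 71.8 and 70.0 CPM in B-D. SG replicate 2 was again the lowest, the groups did not overlap, and fz was 8.83-fold lower in SG, with a log2 fold change of -3.14 ± 0.22 and an adjusted p of 8.55e-05.

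The gene fz2 (19140975 to 19235373 on 3L) encodes the other main Wingless receptor, which is not needed for planar polarity. It was at 112, 103 and 146 CPM in SG, against 204, 229 and 224 CPM in B-D. The difference was the smallest of the 10 genes, 1.82-fold lower in SG (log2 fold change -0.87 ± 0.15, adjusted p = 0.00236). The counts behind the SG values were large, 3190 to 5025 per library.

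The gene fz3 (769945 to 784222 on X) encodes a Frizzled protein that transduces Wingless only weakly and whose transcription is raised by Wingless in discs. It was at 5.90, 5.81 and 6.93 CPM in SG, against 13.6, 13.1 and 14.0 CPM in B-D. These were the closest SG replicates of the 10 genes, with a coefficient of variation of 10.03%, and fz3 was 2.18-fold lower in SG (log2 fold change -1.12 ± 0.12, adjusted p = 3.71e-04).

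The within-library ratio of fz to fz2 was -3.67, -4.24 and -4.04 on the log2 scale in SG and -1.74, -1.67 and -1.68 in B-D. The groups were far apart, and fz was 4.86-fold lower relative to fz2 in SG, a log2 difference of -2.28, with an exact permutation p of 0.1, the smallest possible, and 0.12 after adjustment. The fz3 to fz2 ratio differed by only -0.24, from -4.38 to -4.13 in SG and from -4.12 to -3.90 in B-D, with groups that lay side by side without overlap (exact permutation p = 0.1, adjusted p = 0.12).

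The gene nkd (19003741 to 19045449 on 3L) encodes Naked cuticle, which binds Dishevelled and dampens Wingless signalling, and which is itself induced by the pathway. It was at 13.2, 21.6 and 27.3 CPM in SG, against 63.4, 65.0 and 69.6 CPM in B-D. The SG libraries spread about 2-fold (2.06-fold from lowest to highest) and all lay below B-D, with nkd 3.19-fold lower in SG (log2 fold change -1.67 ± 0.26, adjusted p = 0.00151). Relative to fz3, another gene that Wingless raises, nkd was at log2 ratios of 1.15, 1.88 and 1.96 in SG and 2.22, 2.31 and 2.31 in B-D, lower in SG by 0.61 (exact permutation p = 0.1, adjusted p = 0.12).

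Per length of transcript, in CPM per kb of exon, the genes stood in a different order in the 2 tissues. In SG, fz2 was at 16.2 ± 3.05 CPM per kb (SD, n = 3), nkd at 4.09 ± 1.39, fz at 2.00 ± 0.511, fz3 at 1.67 ± 0.167 and Wnt5 at 1.499 ± 0.856, followed by wg at 0.510 ± 0.168, Wnt4 at 0.417 ± 0.204, Wnt2 at 0.264 ± 0.1096, Wnt6 at 0.227 ± 0.0901 and Wnt10 at 0.0311 ± 0.0288. From fz down to Wnt6, the libraries of each gene overlapped those of the next, so the order of such neighbours is not resolved by their ranges in SG. All SG libraries of fz and fz3 lay above those of wg, Wnt4, Wnt2 and Wnt6, and Wnt5 was above wg within each SG library. In B-D, fz2 was at 29.5 ± 1.81 CPM per kb, Wnt5 at 19.0 ± 0.649, fz at 17.7 ± 1.54, nkd at 13.0 ± 0.634, Wnt4 at 9.98 ± 0.164, fz3 at 3.64 ± 0.118, wg at 3.30 ± 0.190, Wnt2 at 2.82 ± 0.154, Wnt6 at 2.73 ± 0.112 and Wnt10 at 1.13 ± 0.0398. There, only the neighbours Wnt5 and fz, and Wnt2 and Wnt6, overlapped. In B-D, Wnt5 and Wnt4 thus ranked above fz3, and in SG both had a lower mean than fz3.

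The 6 ligands summed to 2.97, 1.70 and 4.18 CPM per kb in SG, against 37.9, 39.5 and 39.5 CPM per kb in B-D. The 3 receptors fz, fz2 and fz3 summed to 18.9, 16.8 and 23.8 CPM per kb in SG, against 47.0, 53.2 and 52.3 CPM per kb in B-D. The receptor gene fz4 is not in that sum, although in CPM it was above fz and fz3 in every SG library. It was at 18.9, 16.9 and 23.2 CPM in SG, against 24.8, 24.9 and 24.2 CPM in B-D. In SG the receptor sum was mostly fz2, at 81.5% ± 1.67 (SD, n = 3), with fz at 10.1% ± 1.87 and fz3 at 8.48% ± 0.726. In B-D, fz2 made up 58.0% ± 0.331, fz 34.8% ± 0.788 and fz3 7.18% ± 0.570. Wnt5 held the largest share of the ligand sum in every library, at 48.1% ± 10.9 in SG and 48.8% ± 0.521 in B-D. Wnt4 held 18.4%, 10.7% and 12.6% in SG, against 25.8%, 25.3% and 25.6% in B-D, whereas wg held 11.2%, 31.2% and 15.9% in SG, against 8.24%, 8.86% and 8.27% in B-D. The ligand shares hardly differed among B-D libraries and differed widely among SG libraries, in which SG replicate 2 had the highest share of wg and the lowest of Wnt5.

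**Figure D2:**
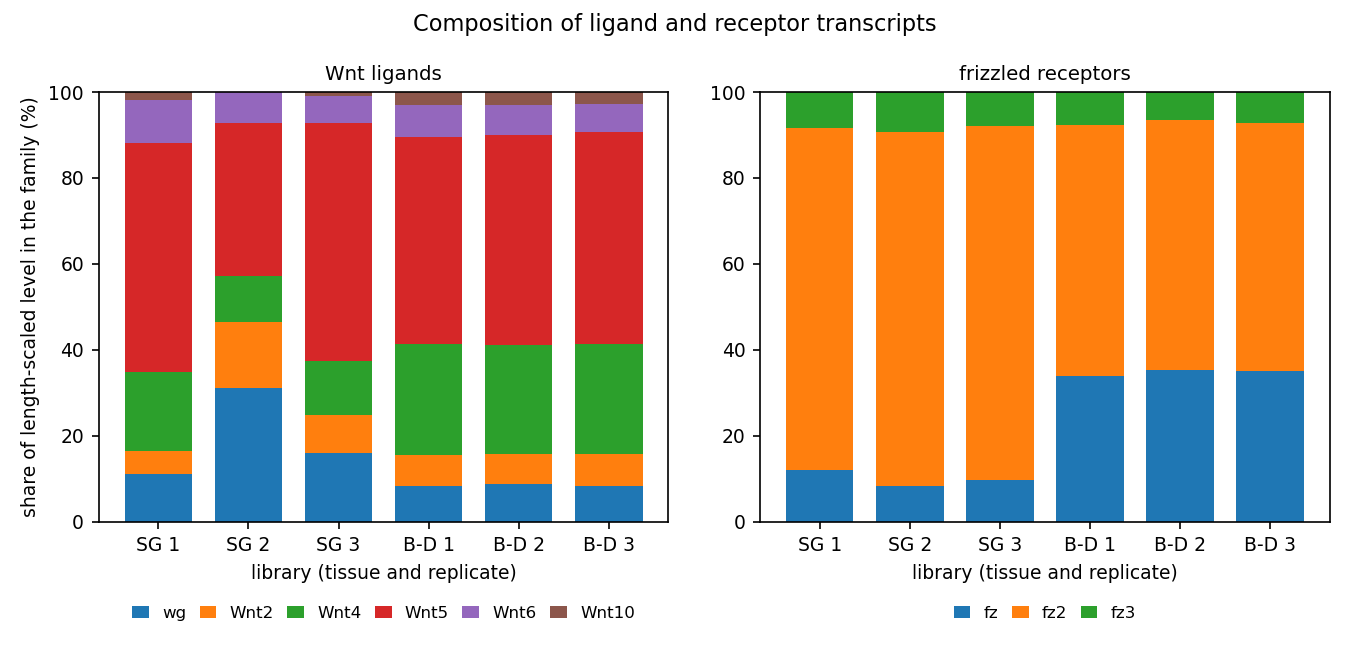
Share of each gene, in percent of the summed CPM per kb of the genes shown for its family, in each SG and B-D library. The 6 ligands are on the left and the 3 receptors fz, fz2 and fz3 on the right, without fz4. In SG, fz2 takes 79.5% to 82.5% of the receptor sum, against 57.7% to 58.4% in B-D, and the ligand shares differ more between the SG libraries than between the B-D libraries.

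The SG libraries were then set against the B-D mean one by one, beside the markers of other cell types. Neuronal markers had a median level of 4.78%, 1.05% and 7.42% of the B-D mean in SG replicates 1, 2 and 3. For neuroblast markers the medians were 7.26%, 2.17% and 11.4%, for disc markers 14.7%, 9.11% and 14.4%, and for glial markers 20.5%, 16.1% and 18.8%. SG replicate 2 was thus the lowest for each of these 4 lists. It was also the lowest for hemocyte markers, at 15.5%, 8.31% and 22.8%, and for muscle markers, at 30.9%, 18.3% and 28.4%, but not for tracheal markers, at 28.0%, 30.7% and 30.3%. The salivary gland markers, like the tracheal ones, had their lowest sum in SG replicate 1, at 18931 CPM, against 25877 and 37777 CPM in SG replicates 2 and 3. In the disc and glial lists, 2 markers each were higher in every SG library than in any B-D library.

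Relative to the B-D mean, Wnt5 was at 8.31%, 3.17% and 12.1% in SG replicates 1, 2 and 3. Wnt4 was at 5.46%, 1.83% and 5.27%, and Wnt6 at 10.7%, 4.56% and 9.69%. For these ligands SG replicate 2 held 31.1% (Wnt5), 34.0% (Wnt4) and 44.7% (Wnt6) of the mean of the other SG libraries, and for fz 61.5%, whereas the median was 72.3% over the 4010 genes called lower and 19.3% over the neuronal markers. Among those 4010 genes, 23.7%, 25.7%, 31.8% and 41.8% had a lower such share than Wnt5, Wnt4, Wnt6 and fz. By contrast, wg was at 10.1%, 16.1% and 20.2% of the B-D mean, Wnt2 at 5.55%, 9.19% and 13.3%, and nkd at 20.1%, 32.8% and 41.3%. These 3 genes were lowest in SG replicate 1, as were the sums of the salivary gland and tracheal markers, and SG replicate 2 held 106%, 97.5% and 107% of the mean of the others. The order of the SG libraries was not tested for these genes. For wg, the intervals of SG replicates 1 and 2 overlapped, at 25.2 to 49.8 and 35.4 to 63.6 counts. Those of the lowest and highest SG counts of Wnt2, given above, overlapped too. At 50.9%, 47.0% and 66.6% for fz2 and 43.6%, 42.9% and 51.2% for fz3, the remaining receptors were well above every one of the 4 marker medians. Fat body markers, as given above, summed to 187061 to 278988 CPM in SG, against 712 to 4365 CPM in B-D. The part of fat body, brain, disc, tracheal or other tissue RNA in the SG levels of these genes was not tested.

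**Figure D3:**
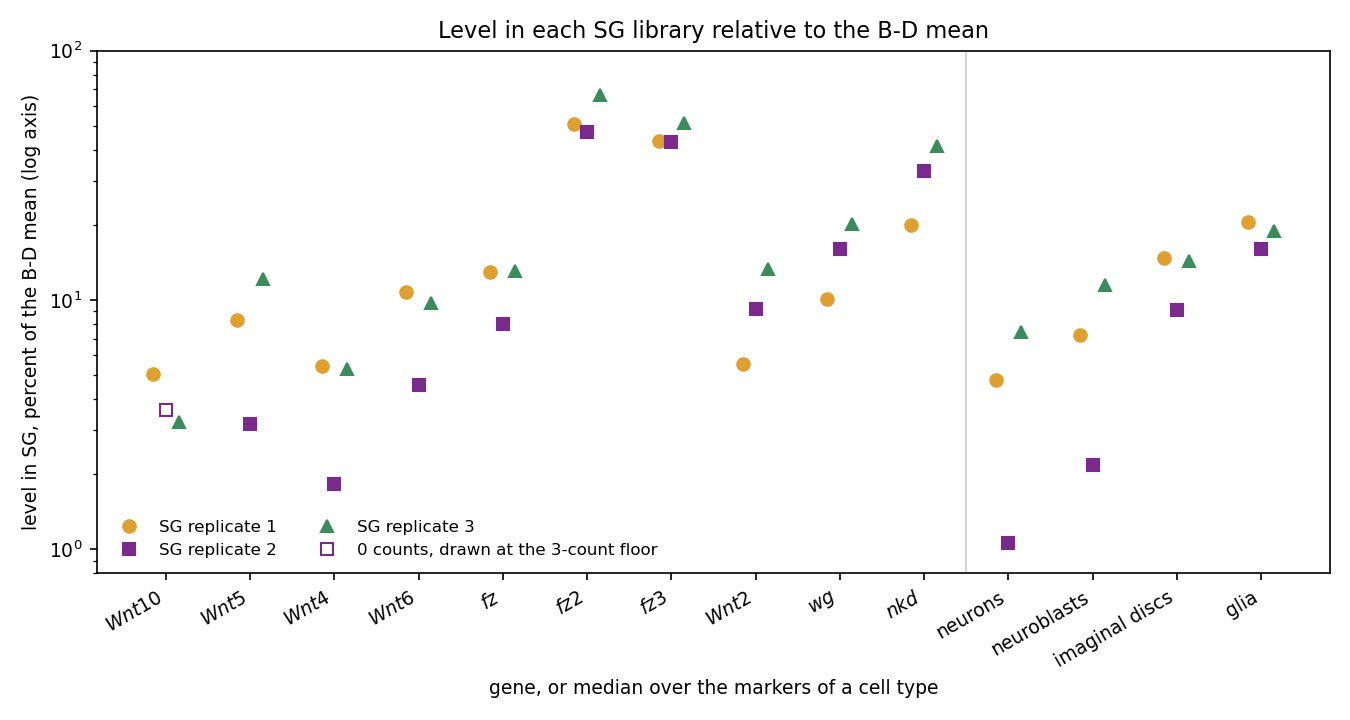
Level in each SG library as a percent of the B-D mean (log axis), for the 10 genes, ordered by how low SG replicate 2 was relative to the other SG libraries, and for the median over 4 lists of cell type markers. SG replicate 2 (purple squares) lies lowest for Wnt5, Wnt4, Wnt6, fz, fz2 and fz3 and for all 4 marker medians, and between the others for Wnt2, wg and nkd. The open square is Wnt10, with 0 counts, drawn at the 3-count floor.

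All 10 genes were called lower in SG both without SG replicate 2 and with SG replicate 2 as the only SG library. In that single library, 35.2% of the genes tested were called lower and 33.4% higher, and the test took its spread from the B-D libraries alone. Since the coefficient of variation of the 10 genes was 10.03% to 92.4% in SG and 1.64% to 8.72% in B-D, the p-values of that single-library test are too small, and its fold changes serve as a description. Without SG replicate 2 the log2 fold changes were -4.20 for Wnt4, -3.27 for Wnt5, -3.26 for Wnt6 and -2.92 for fz, and with SG replicate 2 alone they were -5.75, -4.96, -4.43 and -3.63 in the same order. For fz2 the values were -0.74 and -1.07, for fz3 -1.05 and -1.20, for nkd -1.68 and -1.59, for wg -2.70 and -2.61, and for Wnt2 -3.38 and -3.42. On the log2 scale, Wnt4, Wnt5 and Wnt6 thus moved by more than 1 between the settings, and fz, fz2, fz3, nkd, wg and Wnt2 by less. Wnt10 was at -4.54 without SG replicate 2, and in that library alone, with 0 counts, its fitted value of -10.44 is set by the prior count.

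The gene with the most similar pattern over the 6 libraries was found for each member, as the smallest root mean square difference of centred log2 CPM. For Wnt5 this was fra (frazzled), the netrin receptor of axon guidance, at 0.0619. For fz it was CRMP, the collapsin response mediator protein, at 0.0673, and for Wnt10 it was phyl (phyllopod), which acts in photoreceptor and sensory organ fate, at 0.0682. The nearest genes of Wnt4, Wnt6, fz2 and fz3 were CG15537, CG4570, CG30343 and CG8944, at 0.0239 to 0.0625. For nkd, wg and Wnt2 the nearest were lncRNA:CR44564, CG6280 and cuff, at 0.0852 to 0.134. With 2 groups of 3 libraries, such a match is one of fold change and of the differences between SG libraries, and says nothing of shared control.

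The rest of the pathway was described through 7 lists of 58 genes in all. Of these, 34 were called lower in SG, 6 higher and 18 neither, with a median log2 fold change of -0.91. The shares over all genes tested, against which each list's count is to be read, were 35.3% lower and 34.5% higher. The lists were not tested against each other, and genes within a list went different ways. The median was -3.41 for receptors and co-receptors, -3.08 for planar polarity genes and -3.24 for disc targets, beside -3.62 for the ligands, whereas it was 0.12 for secretion genes, -0.48 for glypicans and heparan sulfate synthesis, -0.22 for cytoplasmic genes and -0.93 for nuclear genes.

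Of 8 other Wnt receptors and co-receptors, 7 were called lower and none higher. The co-receptor arr (arrow) was lower by the least of the 7, at 55.7 to 63.3 CPM in SG, against 91.4 to 103 CPM in B-D (log2 fold change -0.70 ± 0.09, adjusted p = 6.47e-04). Among the receptor-like kinases, otk (off-track) was at 8.57, 3.32 and 12.3 CPM in SG, against 128, 128 and 132 CPM in B-D (-4.00 ± 0.48), otk2 had a log2 fold change of -2.98 ± 0.24, and dnt (doughnut), of the Derailed family, one of -1.52 ± 0.10. The Wnt5 receptor gene drl (derailed), its relative Drl-2, and the separate gene Ror, all named after their values were seen, were at -3.85 ± 0.53, -4.72 ± 0.88 and -4.14 ± 0.52. In SG replicate 2 they were at 2.61, 0.129 and 1.23 CPM, the lowest of the SG libraries, as for Wnt5. SG replicate 2 was the lowest SG library for 6 of the 8 genes of this list, so this was not particular to drl, Drl-2 and Ror. The 1 gene not called was fz4, also named outside the rule, at 18.9, 16.9 and 23.2 CPM in SG, against 24.8, 24.9 and 24.2 CPM in B-D (-0.33 ± 0.13, adjusted p = 0.0628). With upper quartile scaling (-0.51) and under scaling by totals alone (-1.42), fz4 was called lower.

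All 4 further planar polarity core genes were called lower. The cadherin gene stan (starry night, also flamingo) was at 18.1, 3.78 and 22.9 CPM in SG, against 274, 313 and 262 CPM in B-D (log2 fold change -4.24 ± 0.67). Vang (Van Gogh), a membrane partner of Prickle, was at 65.5, 57.7 and 72.1 CPM in SG, against 92.1, 97.1 and 89.2 CPM in B-D (-0.51 ± 0.10, adjusted p = 0.00457). It is named after its values were seen, and its call was lost without SG replicate 2, B-D replicate 1 or B-D replicate 2. The genes pk (prickle) and dgo (diego), partners of Frizzled signalling at cell edges, had log2 fold changes of -3.75 ± 0.37 and -2.42 ± 0.21. SG replicate 2 was the lowest SG library for all 4 of these genes and for fz. The same held for 7 of the 10 members, fz2 and fz3 among them, so it was not particular to planar polarity genes. Over the 4010 genes called lower, SG replicate 2 held a median of 72.3% of the mean of the other SG libraries.

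Of 8 genes of Wnt secretion and release, 3 were called lower, 3 higher and 2 neither, close to the 35.3% and 34.5% of all genes tested. The gene wls (Wntless), the carrier of Wnts to the cell surface, was at 33.5, 25.2 and 26.3 CPM in SG, against 65.2, 64.8 and 61.2 CPM in B-D (log2 fold change -1.17 ± 0.13, adjusted p = 3.78e-04). Notum, the secreted enzyme that inactivates Wnts and is induced by them, had a log2 fold change of -2.72 ± 0.22, and Swim, which encodes a secreted Wingless-binding protein, one of -2.38 ± 0.11. The 3 genes called higher, Vps35 (0.66 ± 0.08), Vps26 (0.58 ± 0.07) and Vps29 (0.79 ± 0.18), encode the retromer, which recycles Wntless and other cargo. When libraries were scaled by their totals alone, which shifted the median of all genes by -1.10, the same 3 genes had negative log2 fold changes of -0.43, -0.52 and -0.31.

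Of 8 genes of glypicans and heparan sulfate synthesis, 4 were called lower, 1 higher and 3 neither. The glypicans dally and dlp, which bind Wingless on the cell surface, had log2 fold changes of -1.64 ± 0.09 and -2.04 ± 0.14, and dally was at 48.6, 46.6 and 53.7 CPM in SG, against 149.6, 163 and 151 CPM in B-D. The sulfotransferase gene Hs6st was lower as well (-1.20 ± 0.19). The gene called higher was sgl (sugarless), the UDP-glucose dehydrogenase, with 0.55 ± 0.17 (adjusted p = 0.0220), a call lost without SG replicate 2, B-D replicate 2 or B-D replicate 3, and a sign that turned (-0.54) under scaling by totals alone.

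In the cytoplasm, 4 of 11 genes were called lower, close to the 35.3% of all genes tested, none higher and 7 neither. The gene dsh (dishevelled), which Frizzled recruits, was at 21.6, 17.5 and 18.8 CPM in SG, against 40.3, 41.4 and 40.3 CPM in B-D (log2 fold change -1.08 ± 0.10, adjusted p = 2.26e-04). The scaffold genes of the destruction complex Axn and Apc2 had log2 fold changes of -0.88 ± 0.08 and -1.54 ± 0.12. The beta-catenin gene arm, which also serves in cell junctions, was at 350, 310 and 309 CPM in SG, against 452, 443 and 416 CPM in B-D. Its log2 fold change of -0.44 ± 0.09 was under the 0.5 required (adjusted p = 0.00620). With upper quartile scaling (-0.62) and under scaling by totals alone (-1.53), arm was called lower.

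In the nucleus, 6 of 11 genes were called lower, 1 higher and 4 neither. The TCF gene pan (pangolin) was at 73.1, 71.3 and 134 CPM in SG, against 220, 264 and 274 CPM in B-D (log2 fold change -1.44 ± 0.28, adjusted p = 0.00362). The kinase gene nmo (nemo), an inhibitor of the pathway, had a log2 fold change of -2.78 ± 0.17, and the co-repressor genes gro (groucho) and CtBP had -1.19 ± 0.08 and -1.11 ± 0.10. The gene called higher was ebd2 (earthbound), at 11.998, 14.1 and 22.4 CPM in SG, against 9.23, 9.67 and 10.3 CPM in B-D (0.73 ± 0.25, adjusted p = 0.0334). That call was lost without SG replicate 3 or any 1 of the B-D replicates, and under scaling by totals alone the log2 fold change was -0.36.

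Of 8 genes that Wingless is known to control in discs, 6 were called lower, 1 higher and 1 neither. Of these, vg (vestigial), the wing selector, and Dll (Distal-less), the leg selector, are in the disc marker list too. The gene vg was at 3.21, 1.58 and 1.54 CPM in SG, against 14.1, 16.1 and 13.1 CPM in B-D (log2 fold change -2.77 ± 0.33), Dll had a log2 fold change of -4.26 ± 0.58, and H15, a T-box gene of ventral leg, was at 0.108, 0 and 0.174 CPM in SG, against 2.99, 3.00 and 3.96 CPM in B-D. The gene called higher, sens (senseless), which also acts in the embryonic salivary gland, was at 52.3, 37.6 and 60.4 CPM in SG, against 2.34, 1.60 and 2.63 CPM in B-D. Its log2 fold change was 4.51 ± 0.28 (adjusted p = 6.26e-05) and 3.42 under scaling by totals alone.

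**Figure D4:**
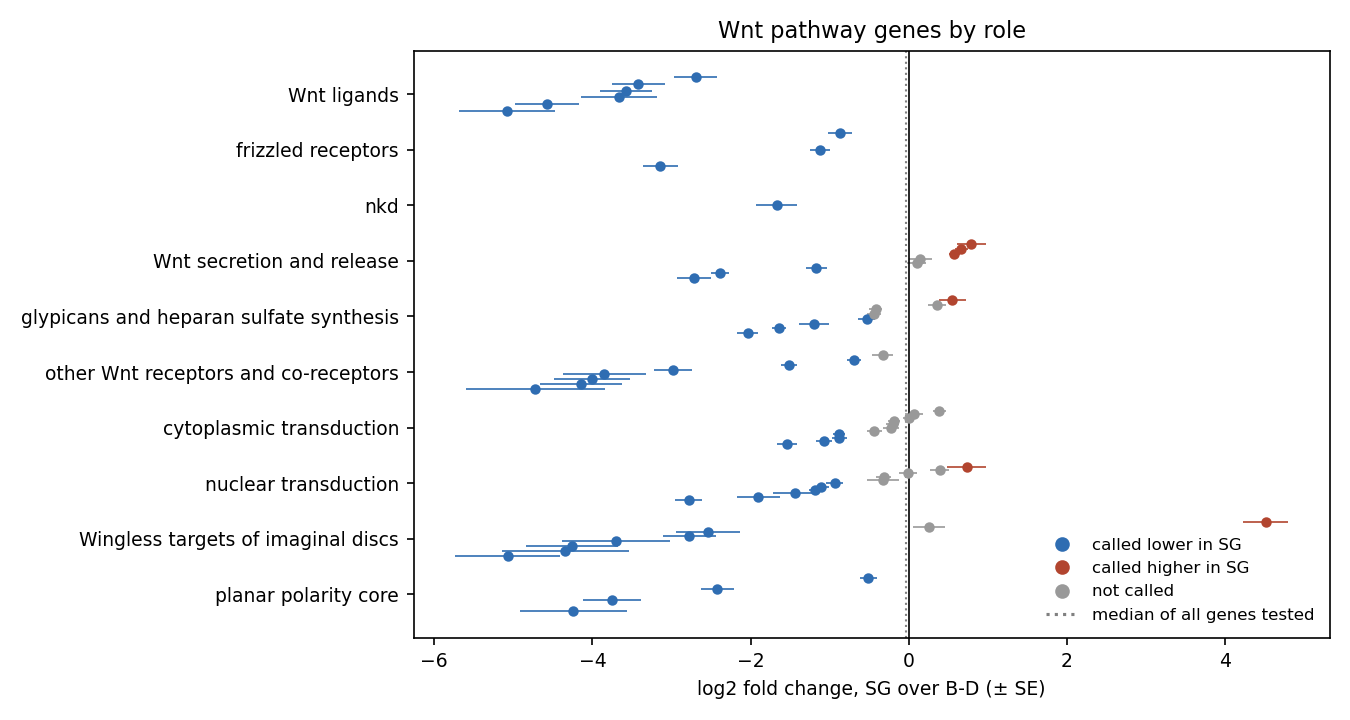
Log2 fold change (SG over B-D) with its standard error for the 10 genes (top 3 rows) and the 58 genes of the other pathway lists, ordered by role. Blue points were called lower in SG, red points higher and grey points neither, and the dotted line is the median of all genes tested, -0.03. The ligands and fz lie far to the left, as do most disc targets and most of the other receptors and planar polarity genes, but not arr, fz4 and Vang, and sens is the 1 gene far to the right.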

How the data were processed

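Raw counts per gene were used as the authors deposited them, 1 table for 6 libraries. Reads from stranded poly-A libraries had been checked with FastQC 0.11.5, mapped to Dmel R6.23 with STAR 2.6.1a and assigned to exons with featureCounts, and some pseudogenes and noncoding RNAs had been left out. How strand and multiply mapping reads were counted is not given in the sources used here. Tables of the authors' own comparison (fold changes and p-values from DESeq2 1.14.1) were not used.

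Counts were fitted with edgeR 4.0.16 in R 4.3.3 (filterByExpr, TMM, quasi-likelihood test, tissue as the only term), with Benjamini-Hochberg adjustment over 11369 genes. Genes were called at an adjusted p of at most 0.05 where the log2 fold change was 0.5 or more in size. Tissue was taken from the sample labels. TMM factors were 0.664 to 0.700 in SG and 1.46 to 1.47 in B-D. Intervals and floors (3 counts) cover counting error only. No pair of libraries agreed within sampling noise (chi-square per degree of freedom at least 38.0). Positions are those of the Ensembl release of the Release 6 assembly, in which all 10 genes had the same ID, symbol and exon length as in the count table.

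Alternatives were DESeq2 1.42.0, limma 3.58.1 (voom), other scalings, no filter, a replicate block, each library left out, SG replicate 2 alone and a log2 threshold of 1. In simulated counts (11369 genes, 200 changed), edgeR called 78% of 4-fold and 14% of 2-fold changes, with 10 false calls. There, both groups had the same mean levels apart from the 200 genes. In the real data, 4010 genes were called lower and 3924 higher, so these rates do not carry over to the real comparison. The members and lists were chosen with earlier results of these data known. Every member is given in full. From each pathway list, up to 3 called genes in each direction with the smallest p were named, and arr, dsh, arm, Axn and pan in any case. With values already seen, drl, Drl-2, Ror, fz4 and Vang were added to these. The markers elav, sage, Lsp1gamma and vg were named.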

Additional observations from a re-analysis of the deposited data

How the results depend on the processing

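All 10 genes were called lower in SG, and 0 higher, under every alternative with the 0.5 threshold. Over the 15 alternatives the log2 fold change ran from -1.96 to -0.74 for fz2 (largest adjusted p 0.0112), from -2.22 to -1.05 for fz3, from -2.76 to -1.42 for nkd and from -3.78 to -2.45 for wg. At a threshold of 1, fz2 (-0.87) was no longer called. Leaving out each library gave 10 to 10 members, 32 to 35 pathway genes called lower and 4 to 6 higher. Pathway genes called higher, 6 in the main analysis, were 2 with upper quartile scaling and 1 at a threshold of 1. With library size as the only scale, 7111 genes in all were called lower and 1588 higher (4010 and 3924 with TMM), 54 pathway genes lower and 1 higher, and the median level of the 10 genes in SG was 4.84% of the B-D mean (10.3% with TMM). The wg to Wnt10 ratio was -0.28 with 0.5 CPM added (1.66 with 0.05 CPM). SG and B-D came from the same larvae, but no source says that a replicate number marks shared larvae. Correlations of same-numbered deviations were 0.33, 0.08 and 0.22, and not all were over 0.1. With a replicate block, 10 members were called lower and 0 higher, with 34 pathway genes lower and 6 higher, and the largest adjusted p of a member was 0.00626. The 0 to 68 counts of wg, Wnt2, Wnt4, Wnt6 and Wnt10 in SG libraries limit their fold changes.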
